A study of Mus musculus with 6 samples.

Results

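Pericentral hepatocyte genes and targets of Wnt signalling were examined as a set of 10 genes, chosen by symbol (Glul, Slc1a2, Oat, Rhbg, Cyp2e1, Lgr5, Axin2, Tbx3, Rnf43 and Znrf3) out of 18253 symbols listed in at least 1 library. All 10 were listed in all 6 libraries. The data are RNA sequencing profiles of whole liver from C57BL/6 mice labelled as postnatal day 21. Every animal had received alpha-naphthylisothiocyanate (ANIT), which injures bile duct cells and induces cholestasis. The ANIT group held 3 libraries, and the celastrol group held 3 libraries from mice that also received celastrol, an anti-inflammatory triterpenoid from plants, with 5 days of treatment given in the labels. No untreated liver was included, so the values set celastrol plus ANIT against ANIT alone, and neither against normal liver. Whether each library is a separate animal is not stated in the labels, so p-values cover only the spread among these libraries, which may be technical.

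Hepatocytes differ along the path of blood from the portal vein to the central vein. Those next to the central vein are exposed to Wnt ligands and R-spondins from the venous endothelium, which stabilise beta-catenin and let it act with TCF factors on target genes. These cells capture ammonia as glutamine and carry much of the drug-oxidising cytochrome P450. Wnt signalling also induces its own inhibitors, so transcripts such as Axin2, Rnf43 and Znrf3 are used as readouts of the pathway.

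Of the 10 genes, 9 passed the abundance filter of at least 1 FPKM (fragments counted per kilobase of a gene and scaled to library size) in at least 3 libraries and entered the test across all genes. Of these 9, 6 were higher in the celastrol group (Glul, Slc1a2, Oat, Cyp2e1, Axin2 and Tbx3) and none was lower (limma on log2(FPKM + 1), Benjamini-Hochberg adjusted p under 0.05). Across all 10593 tested genes 4.41% were higher and 20.6% were lower. Lgr5 lay below the filter and was also higher when all listed genes were tested, a test in which 2.26% of 18253 genes were higher. For 8 of the 9 tested members all celastrol values lay above all ANIT values, against 8.35% of all tested genes. Axin2 passed the filter only through the celastrol libraries, so its passing depended on the group in which it was high. The median log2 fold change was 1.09 over the 9 tested members and -0.17 over all tested genes. The members were chosen with earlier results of these data known, so these contrasts with all genes are not independent of the data. Median-ratio scaling moved the median of all genes to -0.02 and the split of calls from 467 higher and 2185 lower to 801 and 1164, and quantile normalization moved the split to 873 and 952. Between 6 and 9 members were higher under the 8 other settings tried. Those counts include Lgr5 in the settings that tested 10 members (no filter, median-ratio scaling, removal of the 20 most abundant genes and the TPM scale), and with the filter it entered only through its celastrol values. The count was between 4 and 6 when 1 library was left out (4 on omitting either ANIT replicate 2 or 3 or either of celastrol replicates 1 and 3). Glul, Slc1a2, Cyp2e1 and Tbx3 were higher under each of these settings and with each library left out.

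Promoter windows of 4 of the genes that were higher are shown, searched for CTTTGAT or CTTTGAA, letters that TCF factors are known to bind. Binding was not tested. Each window runs from 250 bases before to 50 bases after a RefSeq start site of build GRCm38.p6, 5′ to 3′ on the strand of the gene, and capitals mark either motif on either strand.
Cyp2e1, chr7:140763569-140763868, plus strand: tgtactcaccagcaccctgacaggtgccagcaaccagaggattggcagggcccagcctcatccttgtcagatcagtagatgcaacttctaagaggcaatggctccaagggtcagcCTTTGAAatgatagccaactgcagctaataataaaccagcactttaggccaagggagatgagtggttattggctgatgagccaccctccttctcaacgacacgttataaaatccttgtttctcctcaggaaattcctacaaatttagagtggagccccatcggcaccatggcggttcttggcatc
Slc1a2, chr2:102706188-102706487, plus strand: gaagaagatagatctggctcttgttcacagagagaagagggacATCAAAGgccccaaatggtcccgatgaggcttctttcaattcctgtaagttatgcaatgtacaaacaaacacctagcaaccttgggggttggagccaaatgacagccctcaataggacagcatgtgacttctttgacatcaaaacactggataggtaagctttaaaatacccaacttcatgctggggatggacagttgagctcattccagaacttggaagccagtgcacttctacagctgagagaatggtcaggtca
Glul, chr1:153899679-153899978, plus strand: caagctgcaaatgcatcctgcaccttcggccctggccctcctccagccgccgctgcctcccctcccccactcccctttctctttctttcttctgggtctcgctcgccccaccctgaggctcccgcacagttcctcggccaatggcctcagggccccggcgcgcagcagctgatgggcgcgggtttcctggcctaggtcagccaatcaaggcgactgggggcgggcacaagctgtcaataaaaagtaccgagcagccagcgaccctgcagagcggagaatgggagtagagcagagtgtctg
Axin2, chr11:108920099-108920398, plus strand: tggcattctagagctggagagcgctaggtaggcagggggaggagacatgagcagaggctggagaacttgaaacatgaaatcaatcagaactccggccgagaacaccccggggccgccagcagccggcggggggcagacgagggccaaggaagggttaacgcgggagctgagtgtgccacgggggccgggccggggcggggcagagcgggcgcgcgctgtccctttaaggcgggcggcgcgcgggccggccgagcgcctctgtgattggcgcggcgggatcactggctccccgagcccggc

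Windows were at hand for 6 members, 7 windows in all, since Rnf43 had 2. The letters were found in 2 of the 7, once in Cyp2e1 and once in Slc1a2. In Cyp2e1 CTTTGAA began 135 bases before the start site. In Slc1a2 CTTTGAT lay on the opposite strand, read as ATCAAAG, and began 207 bases before the start site. That start site lies inside the annotated gene, which begins at position 102658659 and has 12 transcripts. Whether it is used in these livers was not tested. The same letters occurred in 8.65% of 32851 promoter windows of this length. The windows of Glul, Axin2, Oat and Rnf43 did not hold these letters, which says nothing of sites elsewhere in those genes.

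**Figure D1:**
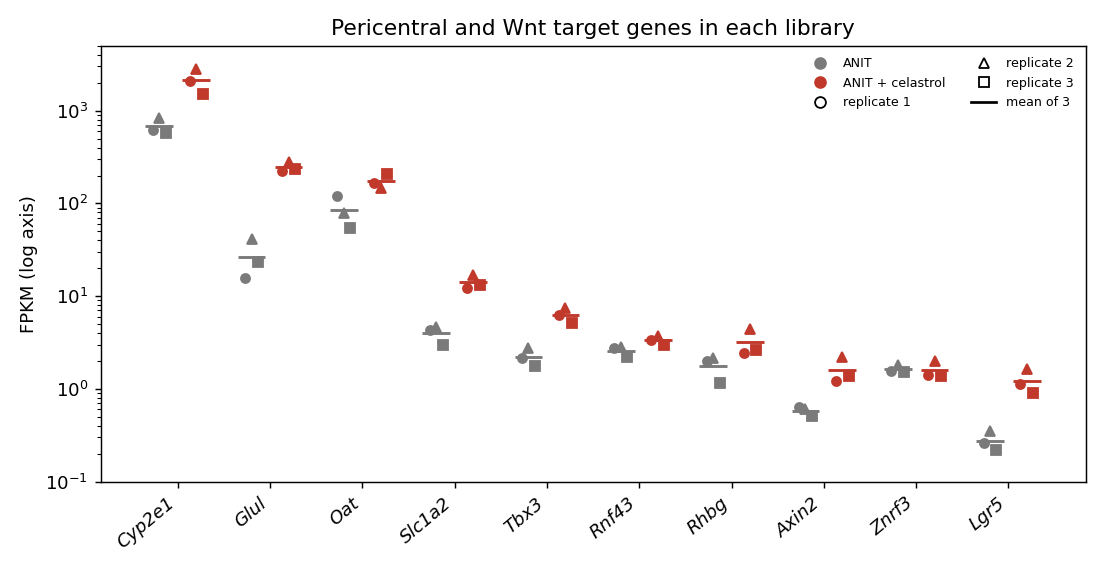
FPKM of the 10 genes on a log axis in each library, with ANIT in grey, ANIT plus celastrol in red, the marker shape giving the replicate and the bar the mean of 3. The celastrol values of Glul, from 223.76 to 277.53 FPKM, all lie above the ANIT values of 15.77 to 41.11 FPKM, while those of Znrf3 overlap.

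Glul, which encodes glutamine synthetase and is confined to the hepatocytes nearest the central vein in normal liver, changed most among the 10 genes. The gene lies on chromosome 1 (mm10 positions 153899944 to 153909723). It measured 15.77, 41.11 and 23.29 FPKM in ANIT replicates 1, 2 and 3 and 223.76, 277.53 and 233.31 FPKM in celastrol replicates 1, 2 and 3. The lowest celastrol library was 5.44 times the highest ANIT library. The mean went from 26.7 ± 13.0 to 244.9 ± 28.7 FPKM (SD, n = 3 each), which is a ratio of 9.16. The log2 fold change came to 3.25 (SE 0.32, adjusted p = 0.0012 by limma), the fifth highest (rank 5) among the tested genes. In whole-liver RNA, more cells of a type and more RNA per cell cannot be told apart, here and for the genes that follow.

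Slc1a2 encodes the glutamate transporter GLT-1, which supplies the substrate of glutamine synthetase. It measured 4.26, 4.68 and 2.98 FPKM under ANIT and 12.27, 16.86 and 13.3 FPKM under celastrol. All 3 celastrol libraries lay above all ANIT libraries, and the lowest was 2.62 times the highest ANIT value. Its log2 fold change came to 1.61 (SE 0.17, adjusted p = 0.0012 by limma), and the mean rose from 3.97 ± 0.886 to 14.1 ± 2.41 FPKM (SD, n = 3 each).

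Oat, ornithine aminotransferase, forms glutamate from ornithine in mitochondria. Its FPKM was 120.27, 78.5 and 53.8 under ANIT and 166.01, 145.19 and 207.92 under celastrol. The groups were separated by a small gap, the lowest celastrol value being 1.21 times the highest ANIT value. The log2 fold change came to 1.09 (SE 0.29, adjusted p = 0.033 by limma), and the call was lost on omitting either ANIT replicate 2 or 3 or either of celastrol replicates 1 and 3 and without the filter (adjusted p from 0.06 to 0.10). Oat lies inside the annotated span of Fgfr2 on the same strand, and how shared reads were assigned is not given. Fgfr2 measured 14.63 to 17.88 FPKM under ANIT and 4.85 to 7.12 FPKM under celastrol.

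Rhbg encodes an ammonia transporter of the hepatocyte membrane. Its values were 1.98, 2.14 and 1.15 FPKM under ANIT and 2.43, 4.45 and 2.62 FPKM under celastrol. The groups did not overlap, but celastrol replicate 2 stood above the other two. Rhbg did not pass (a difference of 0.58 on the log2 scale, SE 0.22, 95% interval 0.08 to 1.09, adjusted p = 0.088 by limma). Under median-ratio scaling it passed (adjusted p = 0.042). A further protein-coding model overlaps Rhbg on its strand and was not listed in the tables.

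Cyp2e1, the cytochrome P450 that oxidises ethanol and acetaminophen, was the most abundant member. It measured 616.47, 842.98 and 573.0 FPKM under ANIT and 2082.44, 2791.3 and 1530.96 FPKM under celastrol. Every celastrol library lay above every ANIT library. The mean rose from 677.5 ± 145 to 2135 ± 632 FPKM (SD, n = 3 each), and its log2 fold change came to 1.63 (SE 0.26, adjusted p = 0.0054 by limma).

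The order of levels within a library differed between the groups. The ratios here and below reuse the members' values already compared, so they are no separate test of the groups. FPKM of Oat exceeded that of Glul in each ANIT library and Glul exceeded Oat in each celastrol library. The ratio of Glul to Oat was 0.131, 0.524 and 0.433 under ANIT and 1.35, 1.91 and 1.12 under celastrol (exact permutation p = 0.1, two-sided, the smallest that 3 against 3 libraries allow). The ratio of Glul to Gls2, the liver glutaminase of periportal hepatocytes, was 0.137, 0.472 and 0.218 under ANIT and 2.75, 2.48 and 2.45 under celastrol (exact permutation p = 0.1).

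Lgr5 is a receptor for R-spondins, which raise the Wnt response by removing ubiquitin ligases of Wnt receptors from the membrane. It measured 0.26, 0.35 and 0.22 FPKM under ANIT and 1.13, 1.62 and 0.91 FPKM under celastrol. These levels rest on few reads, an estimated 4.36 to 6.72 reads per kilobase under ANIT and 18.0 to 31.4 under celastrol. The groups did not overlap, and the means of 0.277 ± 0.0666 and 1.22 ± 0.363 FPKM (SD, n = 3 each) gave a ratio of 4.41. In the fit without the filter the log2 fold change came to 0.79 (SE 0.13, adjusted p = 0.015 by limma), on a scale that understates changes below 1 FPKM, and with a pseudocount of 0.1 it was 1.79 (adjusted p = 0.0095). The call was lost on omitting ANIT replicate 2, ANIT replicate 3 or the first celastrol replicate, with adjusted p from 0.052 to 0.062.

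Tbx3, a T-box transcription factor induced by beta-catenin in hepatocytes, measured 2.14, 2.75 and 1.76 FPKM under ANIT and 6.25, 7.46 and 5.16 FPKM under celastrol. The lowest celastrol value was 1.88 times the highest ANIT value. Its log2 fold change came to 1.18 (SE 0.16, adjusted p = 0.0028 by limma).

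Axin2, Rnf43 and Znrf3 are feedback inhibitors of the pathway. Axin2, a scaffold of the complex that degrades beta-catenin, measured 0.63, 0.61 and 0.51 FPKM under ANIT and 1.2, 2.18 and 1.38 FPKM under celastrol. Its lowest celastrol value was 1.9 times its highest ANIT value. Its log2 fold change came to 0.69 (SE 0.16, adjusted p = 0.018 by limma). The call was lost without ANIT replicate 2 or 3 (adjusted p of 0.057 and 0.052). Without any 1 celastrol library Axin2 fell below the filter, and tested without the filter its call was lost when celastrol replicate 1 or 3 was left out (adjusted p of 0.061 and 0.068).

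Rnf43 and Znrf3 encode the related membrane ubiquitin ligases that remove Frizzled receptors. Rnf43 measured 2.76, 2.83 and 2.18 FPKM under ANIT and 3.38, 3.74 and 2.97 FPKM under celastrol. Its groups were separated by a narrow gap, and it did not pass (a difference of 0.28 on the log2 scale, SE 0.12, 95% interval 0.01 to 0.56, adjusted p = 0.12 by limma). Median-ratio scaling brought it past the threshold (adjusted p = 0.027), as did quantile normalization (adjusted p = 0.033). Znrf3 measured 1.55, 1.81 and 1.53 FPKM under ANIT and 1.4, 1.99 and 1.36 FPKM under celastrol. The groups overlapped, and the log2 fold change came to -0.03 (SE 0.13, 95% interval -0.33 to 0.26, adjusted p = 0.87 by limma). The ratio of Rnf43 to Znrf3 was 1.78, 1.56 and 1.42 under ANIT and 2.41, 1.88 and 2.18 under celastrol (exact permutation p = 0.1, two-sided).

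**Figure D2:**
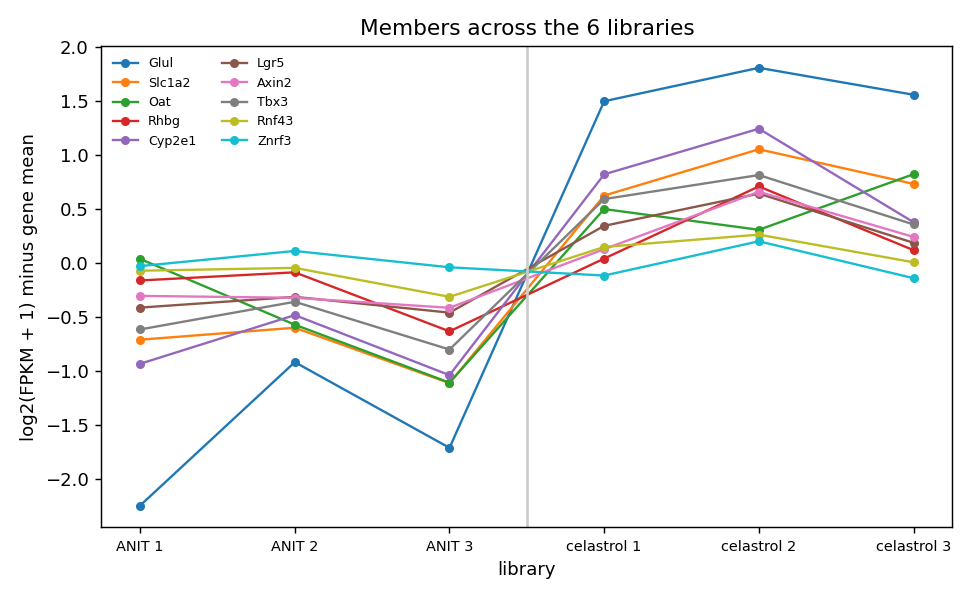
Log2(FPKM + 1) of each of the 10 genes in each library, minus the mean of that gene over the 6 libraries, with lines that only join the values of 1 gene. Celastrol replicate 2 is the highest celastrol library for 9 genes and ANIT replicate 3 the lowest ANIT library for 9 genes.

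Within each group the same library was often the highest. Celastrol replicate 2 was the highest celastrol library for 9 of the 10 genes, Oat being the exception, and it was the highest for 63.6% of all tested genes. ANIT replicate 2 was the highest ANIT library for 8 of the 10 genes against 40.2% of all tested genes, and ANIT replicate 3 the lowest for 9 against 44.5%. Celastrol replicate 2 also stood apart in the share of the FPKM sum taken by the 10 most abundant genes, 20.7% against 33.2% and 31.5% in celastrol replicates 1 and 3 and 20.3% to 21.9% under ANIT. Its part in the members' values was not tested beyond leaving it out, which kept the calls of Glul, Slc1a2, Oat, Cyp2e1 and Tbx3.

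The genes whose pattern over the 6 libraries was most like that of Glul were Csrp3, Ces3b and Prtn3, by the root mean square difference of centred log2(FPKM + 1) values (0.23, 0.43 and 0.44 on the log2 scale) among 9949 genes. Ces3b is a carboxylesterase of hepatocytes and Prtn3 a serine protease of neutrophils. Csrp3, a muscle LIM protein, measured 2.67, 5.47 and 3.03 FPKM under ANIT and 37.62, 34.64 and 37.97 FPKM under celastrol. The closest member to Glul was Cyp2e1, at 0.87. For Axin2 the most similar genes were Mcc, Oaf and Fggy (0.064, 0.076 and 0.079). The closest members to Axin2 were Lgr5 at 0.10 and Rhbg at 0.16. This scale understates changes near or below 1 FPKM, where Lgr5 and Axin2 lie. Their ratios of celastrol to ANIT means were 4.41 and 2.72.

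Other pericentral genes had calls in both directions. Of 21 listed, 19 were tested, 4 were higher and 4 lower, beside 4.41% higher and 20.6% lower among all tested genes, so the lower calls were near the background. The median log2 fold change was 0.37 against -0.17 for all tested genes, and it fell to 0.16 without celastrol replicate 2 and to 0.04 on the TPM scale. Those higher were Slc13a3, a sodium-dependent dicarboxylate transporter, Rgn, the calcium-binding lactonase regucalcin, Gulo, which completes vitamin C synthesis in mice, and Cyp2c54. Slc13a3 rose from 1.47, 2.29 and 1.35 FPKM to 16.52, 11.01 and 9.42 FPKM (a difference of 2.28 on the log2 scale, SE 0.22, adjusted p = 0.0011 by limma). Rgn measured 60.17, 105.2 and 64.5 FPKM under ANIT and 270.05, 421.83 and 209.99 FPKM under celastrol (log2 fold change 1.94, adjusted p = 0.0062 by limma). Gulo rose from 27.5 ± 5.40 to 75.7 ± 25.1 FPKM (SD, n = 3 each, log2 fold change 1.4, adjusted p = 0.0082 by limma). All 3 were separated between the groups. Those lower were the glutathione transferases Gstm3 and Gstm1 and the cytochromes Cyp3a11 and Cyp2a5, which belong to drug metabolism. Gstm3 fell from 1521 ± 269 to 8.55 ± 5.72 FPKM (SD, n = 3 each, log2 fold change -7.47, adjusted p = 0.00024 by limma). Cyp3a11 fell from 4751 ± 904 to 119 ± 131 FPKM (SD, n = 3 each, log2 fold change -5.93, adjusted p = 0.0069 by limma). Gstm1 fell from 2925 ± 534 to 307.8 ± 120 FPKM (SD, n = 3 each, log2 fold change -3.29, adjusted p = 0.00065 by limma). Gstm, Cyp2c, Cyp2a and Cyp3a genes have close paralogs, so how reads were divided among them is uncertain. Cyp1a2, a cytochrome regulated by both beta-catenin and the aryl hydrocarbon receptor, measured 126 ± 24.6 and 174 ± 59.4 FPKM (SD, n = 3 each), short of the threshold (adjusted p = 0.25 by limma). The Cyp2a5 call was lost on omitting any ANIT library and on omitting celastrol replicate 1 or 3 (adjusted p from 0.067 to 0.088). Without celastrol replicate 2, 7 of the 19 tested were lower, beside 3334 of all 10433 genes tested then.

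Of 18 periportal genes, all tested, 4 were higher and 3 lower, beside 4.41% higher and 20.6% lower among all tested genes. Among the 19 tested other pericentral genes 4 were higher as well. The median log2 fold change of the periportal genes was -0.01. Gls2 measured 115.49, 87.06 and 106.79 FPKM under ANIT and 81.29, 112.11 and 95.3 FPKM under celastrol, and the groups overlapped (log2 fold change -0.10, 95% interval -0.50 to 0.29, adjusted p = 0.69 by limma). Cps1, the first enzyme of the urea cycle, measured 542 ± 15.4 and 509 ± 117 FPKM (SD, n = 3 each, adjusted p = 0.68 by limma). Neither Hal, histidine ammonia-lyase (adjusted p = 0.86 by limma), nor Cyp2f2 (adjusted p = 0.66 by limma) passed. The highest periportal calls by p were Ctsc, a lysosomal protease, which rose from 10.6 ± 1.5 to 31.6 ± 8.25 FPKM (SD, n = 3 each, adjusted p = 0.0032 by limma), and G6pc, followed by Fbp1 and Pigr. Cdh1, E-cadherin, fell from 18.85, 21.14 and 25.36 FPKM to 6.01, 6.87 and 5.14 FPKM (a difference of -1.70 on the log2 scale, SE 0.14, adjusted p = 0.00056 by limma), with well separated groups. Hsd17b13, a lipid droplet enzyme, fell from 542 ± 40.4 to 232 ± 32.3 FPKM (SD, n = 3 each, adjusted p = 0.0024 by limma), and Ass1 was also lower. The calls of Pigr (on omitting any ANIT library and on omitting celastrol replicate 1) and Ass1 (without celastrol replicate 1) were lost with adjusted p from 0.057 to 0.078.

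**Figure D3:**
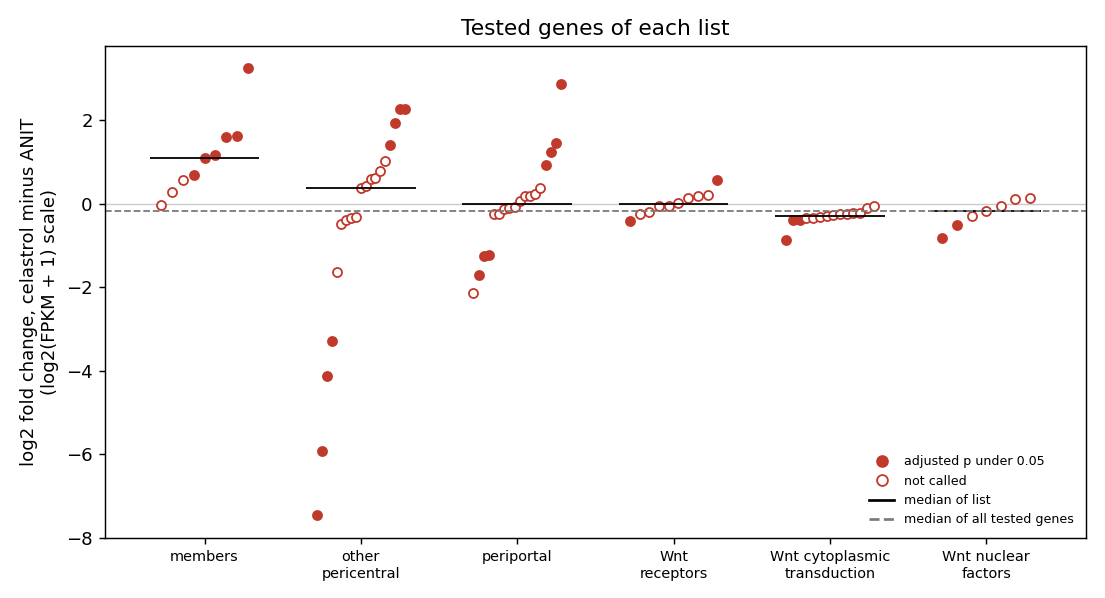
Log2 fold change on the log2(FPKM + 1) scale of each tested gene of 6 lists, filled where the adjusted p was under 0.05, with the list median as a black bar and the median of all tested genes, -0.17, as a dashed line. The members' median is 1.09, while the other pericentral genes reach from -7.47 to 2.28.

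The Wnt ligands and the R-spondin that act on pericentral hepatocytes were listed at under 1 FPKM in each library. Wnt2 measured 0.45, 0.66 and 0.31 FPKM under ANIT and 0.26, 0.73 and 0.38 FPKM under celastrol. Wnt9b measured 0.28, 0.37 and 0.18 FPKM and 0.14, 0.19 and 0.31 FPKM, and Rspo3 0.61, 0.68 and 0.95 FPKM and 0.75, 0.93 and 0.63 FPKM. In all 3 the groups overlapped and no difference passed (adjusted p of 0.94, 0.61 and 0.93 by limma without the filter). Of 24 ligands, R-spondins and secretion factors, 16 were listed in some library and 2 were tested. Wnt5b, a ligand of the non-canonical branch, was lower, from 5.52 ± 0.932 to 2.71 ± 0.557 FPKM (SD, n = 3 each, log2 fold change -0.81, adjusted p = 0.010 by limma). That call was lost under median-ratio scaling and quantile normalization (adjusted p of 0.05 and 0.051). Porcn, which attaches a lipid to Wnt proteins, was the other tested gene and was higher only without ANIT replicate 1 (adjusted p = 0.027, against 0.093 with all libraries).

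Among 10 tested Wnt receptors 1 was higher and 1 lower, beside 4.41% higher and 20.6% lower among all tested genes. The median log2 fold change of the receptors was -0.01. Lrp6, a Wnt co-receptor, was also higher under median-ratio scaling and quantile normalization (adjusted p of 0.045 and 0.038), and Fzd6 was lower without celastrol replicate 2 (adjusted p = 0.043). Lgr4, the R-spondin receptor expressed across the lobule, rose from 7.69, 9.8 and 9.53 FPKM to 13.31, 14.23 and 13.96 FPKM (a difference of 0.57 on the log2 scale, SE 0.11, adjusted p = 0.011 by limma). Lgr4 was the more abundant of the 2 R-spondin receptors in each library, and the ratio of Lgr5 to Lgr4 was 0.0231 to 0.0357 under ANIT and 0.0652 to 0.114 under celastrol (exact permutation p = 0.1). Fzd5, a Frizzled receptor, was lower, from 2.03 ± 0.114 to 1.26 ± 0.105 FPKM (SD, n = 3 each, adjusted p = 0.021 by limma), a call lost under median-ratio scaling and on omitting either ANIT replicate 1 or 2 or either of celastrol replicates 1 and 3 (adjusted p from 0.059 to 0.07).

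None of the 14 tested genes of cytoplasmic transduction was higher and 3 were lower (Dvl1, Csnk1e and Gsk3a), with a median log2 fold change of -0.28 against -0.17 for all tested genes. The lower calls were near the background of 20.6%. All 14 fold changes were negative as reported, as were those of 7640 of all 10593 tested genes. Without celastrol replicate 2, 7 of the 14 were lower, beside 3334 of all 10433 genes tested then. On the TPM scale 8 of 15 were lower, beside 3781 of all 11575. Dvl1, which relays the signal from Frizzled, fell from 34.42, 33.08 and 28.57 FPKM to 15.39, 20.16 and 15.98 FPKM (a difference of -0.87 on the log2 scale, SE 0.14, adjusted p = 0.0055 by limma). The calls of Csnk1e and Gsk3a were lost on omitting any of the libraries except celastrol replicate 2, and under median-ratio scaling and quantile normalization, among other settings (adjusted p from 0.055 to 0.40). Ctnnb1, which encodes beta-catenin itself, measured 53.95, 66.45 and 67.12 FPKM under ANIT and 49.26, 54.27 and 52.78 FPKM under celastrol. Its groups overlapped and it did not pass (log2 fold change -0.25, adjusted p = 0.19 by limma). Apc and Gsk3b, parts of the complex that degrades beta-catenin, had log2 fold changes of -0.27 and -0.34 and did not pass (adjusted p of 0.083 and 0.075 by limma). For each of these genes all celastrol values lay below all ANIT values, for Gsk3b by a narrow gap. Both were lower on the TPM scale (adjusted p of 0.033 and 0.03), and Gsk3b also without ANIT replicate 3 (adjusted p = 0.041). The ratio of Axin2 to its constitutive relative Axin1 was 0.0661 to 0.0966 under ANIT and 0.256 to 0.315 under celastrol (exact permutation p = 0.1).

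Of 7 tested nuclear factors none was higher and 2 were lower, beside 4.41% higher and 20.6% lower among all tested genes. Tcf7l1, the TCF factor known mainly as a repressor, fell from 3.69 ± 0.326 to 1.66 ± 0.181 FPKM (SD, n = 3 each, log2 fold change -0.82, adjusted p = 0.0025 by limma). Ctnnbip1, an inhibitor of the binding of beta-catenin to TCF, fell from 5.65 ± 0.289 to 3.72 ± 0.577 FPKM (SD, n = 3 each, adjusted p = 0.018 by limma), a call lost on omitting either ANIT replicate 1 or 2 or either of celastrol replicates 1 and 3 (adjusted p from 0.054 to 0.07). Tcf7l2, the main TCF factor of hepatocytes, measured 4.43 ± 0.630 and 4.91 ± 0.327 FPKM (SD, n = 3 each), short of the threshold (adjusted p = 0.44 by limma).

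Of 9 further Wnt target genes 3 were tested, and 2 were lower, beside 20.6% of all tested genes. Ccnd1, cyclin D1, fell from 37.13, 20.03 and 26.87 FPKM to 1.75, 1.98 and 1.93 FPKM (a difference of -3.29 on the log2 scale, SE 0.20, adjusted p = 0.00022 by limma). Myc fell from 6.41, 4.81 and 6.44 FPKM to 1.07, 1.6 and 1.7 FPKM (a difference of -1.49 on the log2 scale, SE 0.15, adjusted p = 0.0011 by limma). Both are induced by growth signals other than Wnt as well, and both were separated between the groups in the direction opposite to that of Axin2, Lgr5 and Tbx3. Which signals acted on Ccnd1 and Myc, or on the members, was not tested. Sp5, a transcription factor induced by Wnt in many tissues, was under the filter, with 0.02, 0.12 and 0.1 FPKM under ANIT and 0.48, 0.44 and 0.38 FPKM under celastrol. Its groups did not overlap, and it was higher without the filter (log2 fold change 0.41, adjusted p = 0.011 by limma) on at most 9.46 estimated reads per kilobase. Nkd1, a Wnt inhibitor and target, measured 0.367 ± 0.117 and 0.50 ± 0.208 FPKM (SD, n = 3 each), short of the threshold without the filter (adjusted p = 0.57 by limma).

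In the list of secreted inhibitors and Kremen receptors 2 genes were tested, Notum and Kremen1, and neither passed. Notum, which removes a lipid from Wnt proteins, measured 16.01, 13.3 and 11.97 FPKM under ANIT and 6.54, 11.23 and 4.98 FPKM under celastrol (a difference of -0.84 on the log2 scale, SE 0.26, adjusted p = 0.055 by limma). Its groups did not overlap, and it was lower without celastrol replicate 2 (adjusted p = 0.0038), on the TPM scale, with the 20 most abundant genes removed and with non-robust variances (adjusted p from 0.029 to 0.048). Wif1, a secreted Wnt-binding protein, was not listed in the ANIT libraries and measured 0.54, 0.46 and 0.47 FPKM under celastrol (adjusted p = 0.0021 by limma without the filter).

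**Figure D4:**
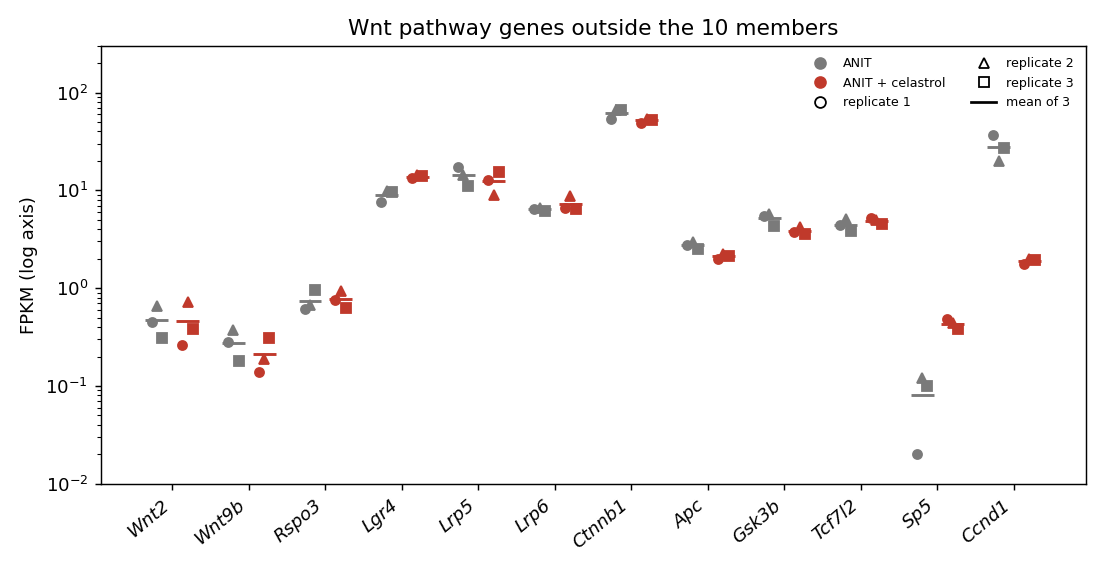
FPKM on a log axis of 12 Wnt pathway genes that are not among the 10 members, with the same colours, markers and bars as in the plot of the members. The groups of Wnt2, Wnt9b, Rspo3, Ctnnb1 and Tcf7l2 overlap, Lgr4 and Sp5 are higher and Ccnd1 lower under celastrol.

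Markers of other cell types were read in the same libraries, where 4.41% of all tested genes were higher and 20.6% lower. Of 6 tested endothelial markers 1 was higher (Stab2, from 3.19 ± 0.678 to 5.54 ± 0.843 FPKM, SD, n = 3 each, adjusted p = 0.019 by limma, lost without celastrol replicate 1 with adjusted p = 0.056) and none lower. With Kdr and Clec4g, 3 were higher after quantile normalization, and with Clec4g and Eng, 3 without celastrol replicate 3, while Lyve1 was lower without ANIT replicate 3 (adjusted p = 0.049, against 0.95 with all libraries). The 7 endothelial markers summed to 28.6 to 48.5 FPKM under ANIT and 40.6 to 74.3 FPKM under celastrol. The 6 central vein endothelial markers summed to 3.20 to 4.18 FPKM and 2.65 to 3.78 FPKM, and Thbd among them was lower (adjusted p = 0.028 by limma, lost without celastrol replicate 1 or 3 and under median-ratio scaling or quantile normalization). Thbd passed the filter only through the ANIT libraries, as did Krt19, so their passing depended on the group in which they were high, and both fell below it when any 1 ANIT library was left out. The 6 cholangiocyte markers summed to 38.9 to 46.2 FPKM and 16.2 to 44.7 FPKM, most of it Spp1, and Krt19 was lower (adjusted p = 0.014 by limma, and 0.054 when celastrol replicate 1 was left out). All celastrol values of Krt19, Krt7, Epcam and Cftr lay below all ANIT values, while the groups of Spp1 and Sox9 overlapped. The share of all tested genes separated in this direction was not counted. Fold changes were negative for 7640 of all 10593 tested genes, so nothing particular to these markers is read from the separation. Krt7, Epcam and Cftr were under the filter and did not pass without it (adjusted p of 0.087, 0.2 and 0.12 by limma). Cftr measured at most 0.05 FPKM. Of the 5 neutrophil markers 3 were higher, with sums of 32.0 to 56.5 FPKM and 65.3 to 87.4 FPKM, calls that were lost when celastrol replicate 1 or 3 was left out, among other settings (adjusted p up to 0.11). None of the 6 macrophage markers, the 4 tested stellate cell markers or the 4 tested erythroid markers passed, and no lymphocyte or cell cycle marker reached the filter. The 5 erythroid markers summed to 184 to 339 FPKM under ANIT and 46.0 to 188 FPKM under celastrol, with a median log2 fold change of -1.58 over the 4 tested. The groups of the haemoglobin genes Hba-a1 and Hbb-bs did not overlap (adjusted p of 0.054 and 0.081 by limma), and both, with Hbb-bt, were lower without celastrol replicate 2 (adjusted p from 0.0023 to 0.0068). Col1a1, a stellate cell marker, was also lower without that library (adjusted p = 0.041). Hepatocyte markers were abundant in each library, and of the 4 listed only Alb passed, at 29351.1 to 38655.85 FPKM under ANIT and 5341.18 to 10051.4 FPKM under celastrol (adjusted p = 0.0024 by limma). The symbol Tf was not listed. The part of these markers in the members' values was not tested.

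**Figure D5:**
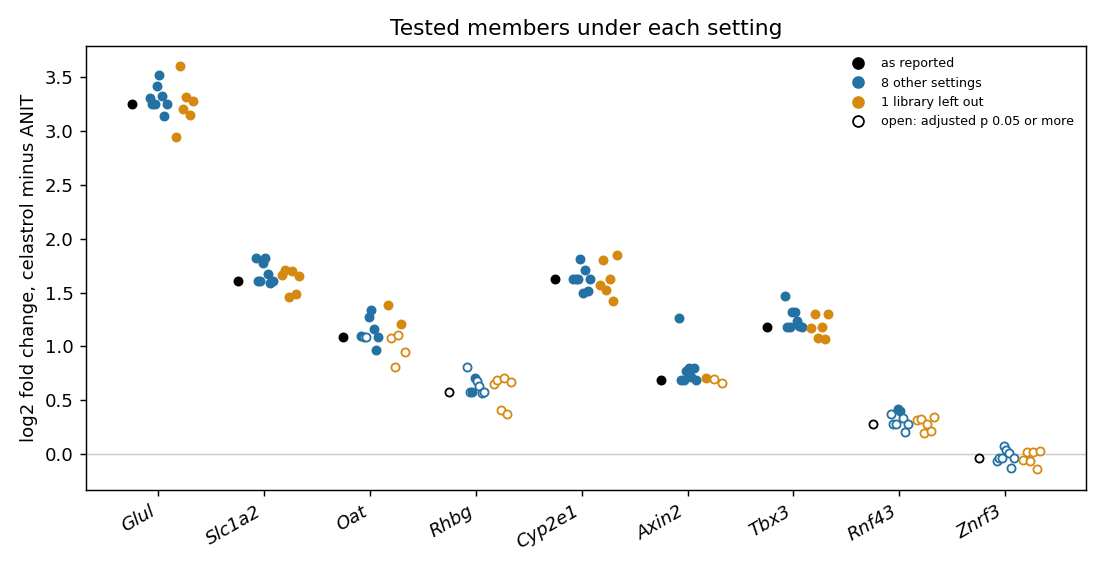
Log2 fold change of the 9 tested members as reported (black), under 8 other settings (blue) and with 1 library left out (orange), with open points where the adjusted p was 0.05 or more. Glul lies between 2.94 and 3.60 in all of them, and Znrf3 between -0.14 and 0.08.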

How the data were processed

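Total RNA of frozen liver was sequenced in 6 libraries, whose titles give group and replicate number. The submitters' processing notes name mm10, HISAT2 and featureCounts, without versions. The authors deposited FPKM per gene symbol, per the file headers. The gene lengths, annotation and strand setting are unknown here, so overlapping and antisense genes cannot be separated. Depth, estimated from the spacing of low FPKM values of genes with 1 transcript, was 18940000 to 19840000 reads per library, so 1 FPKM is 18.9 to 19.8 reads per kilobase. Symbols not listed in a library were set to 0, and 2 repeated symbols were left out.

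The test was that of limma 3.58.1 (R 4.3.3) on log2(FPKM + 1), for genes reaching 1 FPKM in 3 or more libraries, using trended and robust variances, the group without covariates, and Benjamini-Hochberg adjustment over all tested genes. The fit was tested on simulated data. Coordinates came from GENCODE release M21 and promoter windows from RefSeq. The members and lists were chosen with earlier results of these data known. Text names the members, fixed genes of the pathway and zonation lists, the 2 called genes with the smallest p per list and direction, and the 3 nearest patterns of Glul and Axin2. Wif1, Notum, the remaining genes of small counts, the Csrp3 values and all cell type markers were named after their values were seen. Same-numbered libraries did not deviate together in every pair (correlations of 0.149, 0.231 and -0.0917), so they were not treated as pairs.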

Additional observations from a re-analysis of the deposited data

How the results depend on the processing

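The count of called genes was 2652. Rescaling to TPM gave 4189, and the count lay between 1117 (without celastrol replicate 1) and 3810 (without celastrol replicate 2) with 1 library left out. The 467 genes called higher became 801 under median-ratio scaling and 873 after quantile normalization, and lay between 196 and 476 with 1 library left out. The 2185 called lower became 1164, 952 and, on the TPM scale, 3781, with values between 911 and 3334 when 1 library was left out. Of the 9 tested members, 6 were called. Of 10 tested, once Lgr5 reached the filter through its celastrol values, 9 were called under median-ratio scaling and 7 without the 20 most abundant genes or when rescaled to TPM. Quantile normalization gave 7 of 9, and leaving out 1 library gave 4 to 6 of 8 or 9. Without celastrol replicates 1, 2 or 3 Axin2 fell below the filter. The causes of the other changes were not tested. With the replicate block 6 members were called, with Oat lost (adjusted p = 0.061) and Rhbg gained (adjusted p = 0.038), Gsk3a was lost, and Notum, Cyp2c29, Kdr, Clec4g, Hba-a1 and Hbb-bs were also called (adjusted p from 0.005 to 0.049). The log2 fold change of Znrf3, -0.03, was 0.08 under median-ratio scaling, 0.04 after quantile normalization and 0.01 once the 20 most abundant genes were removed, and lay between -0.14 and 0.03 with 1 library left out; none of these passed. Its direction is therefore unknown. The fits of Lgr5 without the filter and with 1 library left out, those of Axin2 without the filter and with 1 celastrol library left out, and that of Lgr5 with a pseudocount of 0.1 were chosen after seeing the data. Groups of 3 libraries are too small for a check of single outlying samples. The values of Lgr5, Axin2, Sp5, Wnt2, Wnt9b and Rspo3 rest on few reads per kilobase.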
